A study of Rattus norvegicus with 4 samples.

Results

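The comparison described here is the gracilis muscle of the rat after 4 h of ischemia and 3 days of reperfusion, set against the muscle of a sham-operated control on the same array. It was chosen by its label, which names the treatment and the time, and it is 1 of the 4 arrays of the series. The other arrays held muscle after 1, 7 and 14 days of reperfusion, each against sham. All animals were male Sprague-Dawley rats. Both RNAs of the array came from gracilis muscle, a strap-like muscle of the inner thigh. RNA of the injured muscle carried the red dye Cy5 and RNA of the sham muscle the green dye Cy3, on an Agilent rat 2-colour array. Ages, the number of animals behind each RNA and the time at which the sham muscle was taken are not given in the sources used here, nor whether 1 sham RNA served all arrays. The array carried 41372 spots for 41012 probes, which stood for 35598 genes or unnamed transcripts. Of these, 24426 were measured, meaning well above background in at least 1 channel, and 12240 of them had a gene symbol. Both channels were above background for 14583, the injured channel alone for 9773 and the sham channel alone for 70.

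Adult muscle fibres are long cells packed with sarcomeres, the repeating units of actin and myosin filaments that shorten when calcium is released inside the cell. When fibres die after loss of blood flow, phagocytes clear the debris, satellite cells (the stem cells of muscle, marked by Pax7) enter the cell cycle and express Myod1, and their daughters fuse into new fibres under Myog. Fibroblast-like cells that carry the receptor Pdgfra lay down a provisional collagen matrix meanwhile.

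Values are log2 ratios of injured over sham, so that 1 is 2-fold higher and -1 is 2-fold lower, and levels are log2 intensities of each channel after normalization. There was 1 array and therefore no replicate and no test of injured against sham. Genes are called higher or lower from a difference of 2-fold, a rule of size. Among 40 probes printed 10 times on the array the ratio varied between spots with an SD of 0.095, which is spot noise and not the spread between animals. No dye swap was made, so a dye effect on a probe and a difference between the muscles cannot be told apart, and in whole muscle fewer cells of a type and less RNA per cell cannot be told apart either. By this rule 606 genes were higher (2.48% of those measured) and 965 lower (3.95%), which is 6.43% either way. The lower side reached further: 281 genes were at least 4-fold lower and 58 at least 16-fold, against 26 and 0 on the higher side.

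The scaling of the array moved these counts. Loess, which was used for every value below unless stated, sets the ratio of the bulk of genes to 0 at every brightness. Centring the whole array on its median left brighter genes about 1 unit higher, and ribosomal proteins, the protein parts of the ribosome, then had a median of 1.05 in place of -0.08. Of all calls 38.6% were on the higher side after loess, 91.4% after centring (4196 genes higher, 395 lower) and 67.4% by the deposited ratio (3748 higher, 1810 lower). The median over all genes measured was 0.03, 0.29 and 0.18 in turn. Under all 3 ratios alike, 602 genes were higher (2.46%) and 393 lower (1.61%), and a gene is said below to hold where it is among them. Nearly every higher call held (602 of 606) but fewer of the lower ones (393 of 965), so holding says little of a higher gene.

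**Figure D1:**
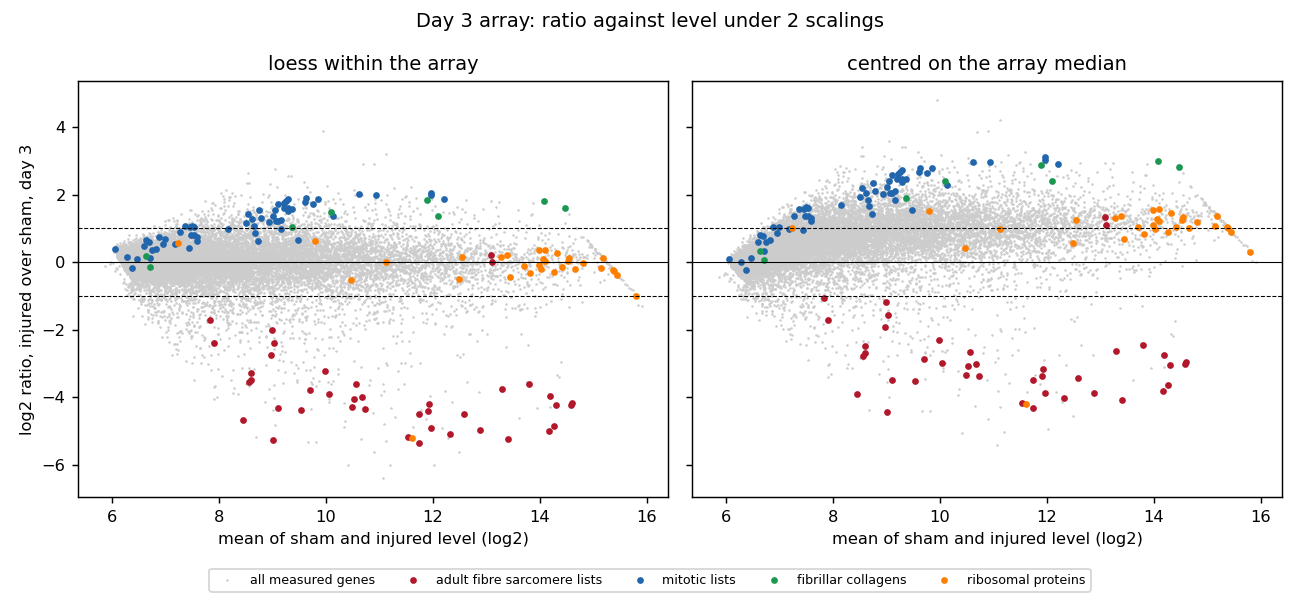
Log2 ratio of injured over sham on day 3 against the mean of both channel levels (log2) for all measured genes (grey), with loess on the left and median centring on the right; dashed lines mark 2-fold. The sarcomere lists lie below -1 on both sides except for Atp2a2 and Tpm3, whereas the ribosomal proteins move from a median of -0.08 to 1.05.

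The sham channel carried the genes that define skeletal muscle, with Ckm, muscle creatine kinase, at 16.33, and the adult fibre genes made up the far end of the lower side. All 13 measured genes of the fast sarcomere were lower, with a median of -4.24, against 0.03 over all genes. Actn3, the alpha-actinin of fast fibres, stood at 16.01 in sham and 10.78 in the injured muscle, which is 37.4-fold lower. Pvalb, parvalbumin, the calcium buffer of fast fibres, went from 14.13 to 8.95. Myl1, an essential myosin light chain, went from 14.84 to 10.33. Under the other settings tried, given in the closing section, its ratio ran from -4.55 to -2.37. Myh4, the myosin of the fastest fibres, stood at 15.60 against 11.97 and Myh2 at 12.63 against 8.34. Tnnc2, fast troponin C, was at least 28.7-fold lower, a bound because its sham spot was saturated. The summed level of the fast list was 18.91 in sham and 14.60 in the injured muscle (log2).

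Genes of slow fibres were lower to a like extent. Of 12 measured, 10 were lower, with a median of -4.23. Csrp3, muscle LIM protein, stood at 14.42 in sham and 9.05 in the injured muscle (41.3-fold lower). Tnnc1, slow troponin C, went from 15.37 to 10.40, and the slow light chain Myl3 from 14.00 to 9.49. The slow myosin Myh7 was at least 19-fold lower. The 2 members within 2-fold of sham were Tpm3 at 0.20 and Atp2a2 at -0.01, both also made outside muscle. Other probes of these 2 genes disagreed: those of Tpm3 ranged from -4.74 to 0.24 and those of Atp2a2 from -3.62 to 0.37. Probes of 1 gene can read different transcripts, and which of them these probes read was not tested.

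The frame that holds sarcomeres together and the machinery that couples them to the nerve impulse followed. All 15 measured genes of the Z-disc and the giant proteins were lower (median -3.78). Neb, nebulin, the ruler of the thin filament, went from 11.65 to 6.38, and Pdlim3, a Z-disc adaptor, from 14.87 to 9.79. Cryab, a small heat shock protein that guards desmin, was at least 32.2-fold lower. In the calcium handling list 10 of 15 were lower (median -2.56). Trdn, triadin, which anchors the calcium store to its release channel, went from 13.71 to 8.09 (49.4-fold lower), with its 3 probes between -5.79 and -1.85. Ryr1, the release channel itself, stood at -3.56 and Cacna1s, its voltage sensor, at -4.69 by their brightest probes. Another probe of Ryr1 read -0.40 and another of Cacna1s -0.41. In the dystrophin and membrane list 6 of 13 were lower, among them Sgca, alpha-sarcoglycan, at -2.25. Anxa1, an annexin of membrane repair and of leukocytes, was its 1 higher member at 1.74.

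Fuel handling split by gene. Ampd1, the AMP deaminase of muscle, had the lowest ratio of any named gene: 14.25 in sham and 7.86 in the injured muscle, 84.1-fold lower by its brightest probe, whereas its second probe read -0.06. Ckmt2, the mitochondrial creatine kinase of muscle, went from 15.30 to 9.66 (49.8-fold lower). Of 28 glycolysis and glycogen genes 12 were lower, led by Pgam2 at -3.75, and of 24 fatty acid genes 12 were lower, led by Cpt1b at -4.32, whose other probe read -0.18. The general mitochondrial lists moved far less: the tricarboxylic acid cycle had 5 of 21 lower (median -0.52, and 0.36 after median centring) and respiratory complex I 8 of 23 (median -0.88, and 0.15 after centring), and none of these 13 calls held. Ndufv3 of complex I at -1.59 and Pdhb, a subunit of pyruvate dehydrogenase, at -1.5 lay farthest down. In complexes III to V 14 of 30 were lower (median -0.87, and 0.09 after centring), of which 2 held. Both are heart and muscle forms: Cox8b, with 13.77 in sham and 8.48 in the injured muscle, and Cox6a2, with 12.96 and 9.73. Of the 3 probes of Cox8b the mildest read -0.73.

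Some proteins exist in a muscle form and another form, or have a relative of the same family. From these, 25 pairs were put together after values had been seen, so that they are examples and say nothing of such proteins at large. Ckm went from 16.33 to 12.05, while Ckb, the brain form, went from 10.69 to 11.53. Rpl3l, the muscle form of ribosomal protein L3, went from 14.21 to 8.99, while Rpl3 stayed at 11.14 against 11.13. Atp2a1, the fast calcium pump, was at -4.04 and Atp2a2 at -0.01. Eef1a2, the elongation factor of muscle and nerve, was at -2.98 and the general Eef1a1 at -0.45. Acta1, skeletal actin, was at -3.55 and Actb, cytoplasmic actin, at 0.31. Other pairs went differently. Ldha, the muscle form of lactate dehydrogenase, was at -0.91 and Ldhb, the heart form, at -3.08. Ampd3, a form of AMP deaminase made outside muscle too, was lower along with Ampd1, with 12.66 in sham and 9.61 in the injured muscle. Ldb3 and Pdlim7 were both lower, at -3.78 and -2.95. Hk2 and Hk1, hexokinases, differed by 0.94, and Phkg1 and Phkg2, phosphorylase kinase subunits, by 0.89. Fabp4, the fatty acid binding protein of fat and macrophages, was at 1.98 and Fabp3, that of heart and muscle, at -2.22.

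**Figure D2:**
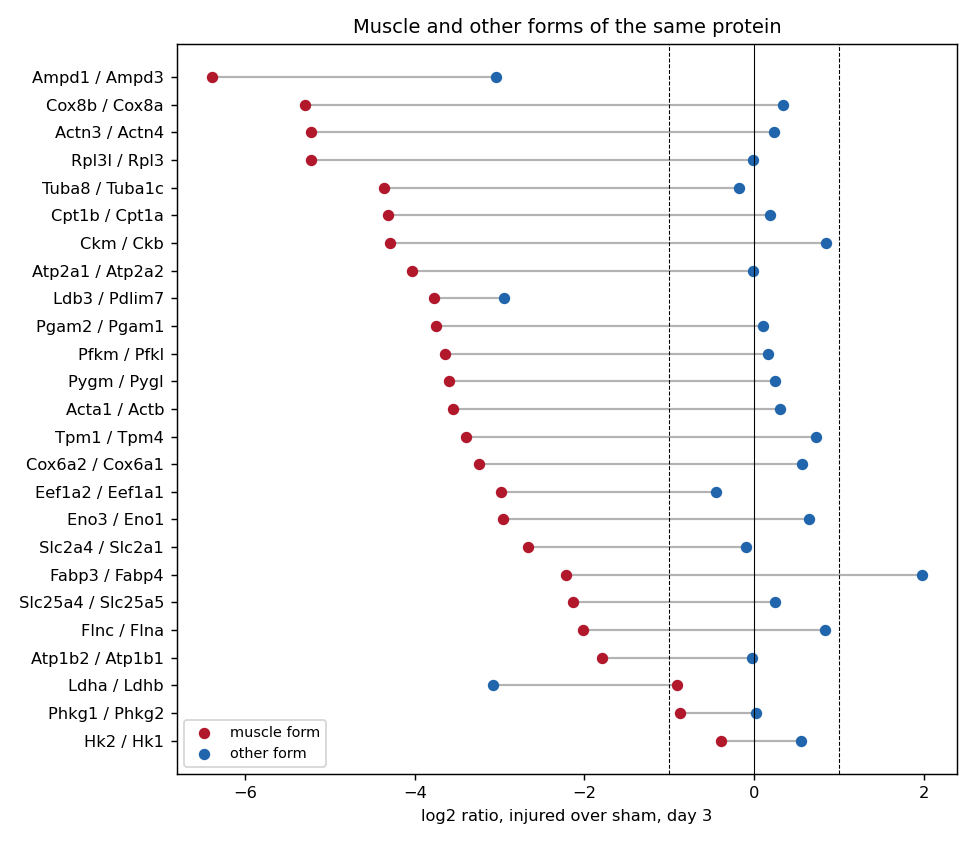
Log2 ratios on day 3 of 25 pairs, chosen with values in view. Each pair is a muscle form (red) and another form (blue) of a protein or protein family, ordered by the muscle form. Dashed lines mark 2-fold. The red point lies left of the blue one except for Ldha and Ldhb, at -0.91 and -3.08. The blue points of Ldhb, Ampd3 and Pdlim7 lie below -1 and that of Fabp4 above 1.

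Other lists were lower in part. Of 20 heat shock genes 8 were lower, and 6 of the calls held. They were led by small heat shock proteins of muscle: besides Cryab, Hspb3 went from 9.97 to 5.97 and Hspb1 stood at -2.72. Of 19 ubiquitin ligase and autophagy genes 8 were lower and all 8 held. Trim63, the atrophy ligase MuRF1, went from 11.46 to 6.64 (28.2-fold lower), and Asb2 from 13.58 to 9.0. Fbxo32, the other classic atrophy ligase, was at least 2.23-fold lower. Among sodium and potassium channels and pumps 6 of 14 were lower, among them Scn4b, a sodium channel subunit, at -3.63. The ratio of Scn4b ran from -4.12 to -1.92 under the other settings tried. At the motor endplate 2 of 21 were lower (median -0.04). Chrnd, the delta subunit of the acetylcholine receptor, was at -3.04, while Chrng, its fetal gamma subunit, was at -0.38 and Chrna1 at -0.33. Of 27 proteasome genes 5 were lower (median -0.61), led by Psmd11 at -1.79. None of the proteasome calls held, and the median was 0.55 after median centring.

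Myogenic regulators stood at different points. No probe was matched to Pax7. Myod1, which marks activated satellite cells, went from 10.52 in sham to 12.47 in the injured muscle (3.87-fold higher). Myf5, its close relative, stood at 7.35 and 7.53. Myog, which drives differentiation, was lower, at 13.11 against 11.66, and did not hold. Myf6, the regulator of mature fibres, went from 9.77 to 6.09. Myh3, embryonic myosin and a marker of new fibres, stood at 10.46 against 10.22. Of 15 satellite cell and myoblast genes 2 were higher, Myod1 and Vcam1, and 2 lower, among them Des, desmin, at -2.51. Vcam1, an adhesion molecule that endothelium also makes, went from 9.45 to 11.18. Of 20 differentiation and fusion genes 8 were lower and none higher (median -0.81), and several are also genes of adult muscle. Mustn1 went from 14.88 to 9.69, and Actc1, cardiac actin, stood at -3.83 by 1 probe and -0.88 by the other.

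Genes of cell division were higher, more so those of the late steps of the cycle. Of 21 mitotic kinases and cyclins 11 were higher and none lower (median 1.31). Of 38 genes of the spindle, kinetochore and cytokinesis 23 were higher and none lower (median 1.07). All 34 calls held, as nearly all higher calls on the array did. Cdkn3, a phosphatase of the mitotic kinase, went from 9.62 to 11.63. Ccnb1, cyclin B1, went from 8.68 to 10.57 and Cdk1, its kinase, from 11.28 to 13.14. Spc24, part of the kinetochore complex that grips microtubules, went from 10.94 to 13.00 (4.17-fold higher). Pttg1, securin, an inhibitor of the separation of sister chromatids, went from 10.97 to 12.94. Stmn1, stathmin, which takes microtubules apart, went from 9.93 to 11.93, and Mki67, the proliferation marker, from 8.35 to 10.17. Ube2c and Cdc20, which trigger the destruction of securin and cyclin B, stood at 1.88 and 1.36.

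Earlier steps of the cycle moved less. Of 30 genes of the replication origin and fork 3 were higher (median 0.41): Pold1, a DNA polymerase subunit, at 1.12, and Gmnn and Dbf4 at 1.02 each. The replicative helicase gene Mcm6 stood at 7.97 against 8.73 and Pcna, the sliding clamp, at 10.24 against 10.76. Of 15 genes of nucleotide supply and histones 4 were higher, led by Rrm2, ribonucleotide reductase, at 1.36. Of 17 genes that drive or restrain the entry into S phase 4 were higher, led by Ccnd1, cyclin D1, which went from 10.67 to 12.44. The others were Ccne1 at 1.38, Cdkn2a, an inhibitor, at 1.24 and E2f1 at 1.08. Dim probes understate ratios because of the background offset. With no offset the medians were 0.66 for the replication list, 1.46 for mitotic kinases and cyclins and 1.42 for the spindle list, in the same order.

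The late and early lists also differed in the letters of their promoters, the DNA just before a gene's start, which are shown for that reason. Late cell cycle genes are known for pairs of a CCAAT box, bound by NF-Y, and a CHR element with the letters TTTGAA, bound by the DREAM and MuvB complexes. Early genes are known for E2F sites. RefSeq windows of 300 bases (250 before the start and 50 after, assembly GRCr8) were searched on both strands. For 54 genes of the mitotic lists 77.8% of windows held CCAAT, 70.4% held TTTGAA and 59.3% held both. For 45 genes of the replication and nucleotide lists the shares were 57.8%, 20% and 6.67%. Over all 27457 promoters they were 37.7%, 18.1% and 7.25%. E2F letters (TTGGCGC or, with other letters in the middle, TTCCCGC as well as TTCGCGC and, last, TTGCCGC) stood in 20.4% of the mitotic, 68.9% of the replication and 10% of all promoters. In the 200 bases before the start alone, TTTGAA remained in 51.9% of the mitotic promoters and both motifs in 44.4%, against 12.5% and 3.84% of all. In that shorter window E2F letters stood in 35.6% of the replication promoters, in place of 68.9%, against 6.8% of all. Exact Clopper-Pearson 95% intervals for TTTGAA were 56.4% to 82.0% in the mitotic and 9.58% to 34.6% in the replication lists. A match is a description of letters and not a bound site, and no factor was measured here.

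The 150 bases before the start were read for 9 mitotic genes that were higher on day 3, of which 6 held TTTGAA there and 3 did not (Ccnb1, Plk1 and Stmn1). Of 3 replication genes Mcm6 held E2F letters in that stretch, while Pcna and Mcm3 did not. Shown are 3 mitotic genes picked because they hold both motifs, Ccnb1 as one without TTTGAA, and Mcm6. Capitals mark CCAAT and TTTGAA on either strand, and in Mcm6 CCAAT and E2F letters. Cdc20 lies at chr5:137255800-137255949 (minus strand), Ccnb2, cyclin B2 (1.31 on day 3), at chr8:79981659-79981808 (minus), Cdk1 at chr20:19265143-19265292 (plus), Ccnb1 at chr2:33655226-33655375 (minus) and Mcm6 at chr13:42404353-42404502 (minus), all in GRCr8.
Cdc20: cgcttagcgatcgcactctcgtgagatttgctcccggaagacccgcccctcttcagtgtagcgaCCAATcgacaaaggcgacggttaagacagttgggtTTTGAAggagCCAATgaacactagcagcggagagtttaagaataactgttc
Ccnb2: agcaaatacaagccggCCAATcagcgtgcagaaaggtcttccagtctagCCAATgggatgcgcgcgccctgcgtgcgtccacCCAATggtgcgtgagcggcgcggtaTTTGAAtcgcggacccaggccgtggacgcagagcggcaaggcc
Cdk1: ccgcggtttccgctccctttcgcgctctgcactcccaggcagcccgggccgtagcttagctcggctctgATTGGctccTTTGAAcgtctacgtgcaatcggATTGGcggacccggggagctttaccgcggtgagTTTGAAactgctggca
Ccnb1: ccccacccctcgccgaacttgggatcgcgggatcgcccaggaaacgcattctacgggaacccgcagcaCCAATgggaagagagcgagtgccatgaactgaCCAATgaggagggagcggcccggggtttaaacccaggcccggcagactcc
Mcm6: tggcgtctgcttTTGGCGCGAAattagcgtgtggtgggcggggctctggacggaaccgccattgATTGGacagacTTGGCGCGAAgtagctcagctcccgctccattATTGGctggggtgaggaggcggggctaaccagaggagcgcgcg
Cdc20, Cdk1 and Ccnb1 each hold 2 CCAAT motifs in the stretch shown and Ccnb2 holds 3, with 1 TTTGAA in Cdc20 and Ccnb2 and 2 in Cdk1. Mcm6 holds 2 CCAAT motifs and 4 E2F matches, which overlap in pairs.

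Of the letters of muscle factors, those of MEF2 and the CArG box stood in few fibre promoters and the E-box in most. Of 58 promoters of the muscle fibre lists 8.62% held the MEF2 motif, against 0.605% of all promoters, and 6.90% held the CArG box of serum response factor, against 1.64% (exact intervals 2.86% to 19% and 1.91% to 16.7%). The E-box CANNTG, the letters bound by Myod1 and Myog, stood in 81.0% against 71.6%, which lies inside its interval of 68.6% to 90.1%. The stretches before Myh4 (chr10:52421998-52422147, plus strand) and Acta1 (chr19:68784195-68784344, minus strand) are given because, of 7 lower fibre genes read in this way, these 2 hold a CArG box there. Ckm, Actc1, Myl1, Tnni2 and Atp2a1 do not. The CArG box and any E-box are in capitals.
Myh4: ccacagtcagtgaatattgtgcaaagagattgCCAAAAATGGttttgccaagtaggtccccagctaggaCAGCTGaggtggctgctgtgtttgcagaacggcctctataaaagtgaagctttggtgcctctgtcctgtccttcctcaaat
Acta1: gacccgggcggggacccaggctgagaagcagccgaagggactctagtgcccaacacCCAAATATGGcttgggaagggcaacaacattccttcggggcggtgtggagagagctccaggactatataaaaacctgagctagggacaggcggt
Myh4 holds 1 E-box and 1 CArG box in this stretch, and Acta1 holds 1 CArG box.

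**Figure D3:**
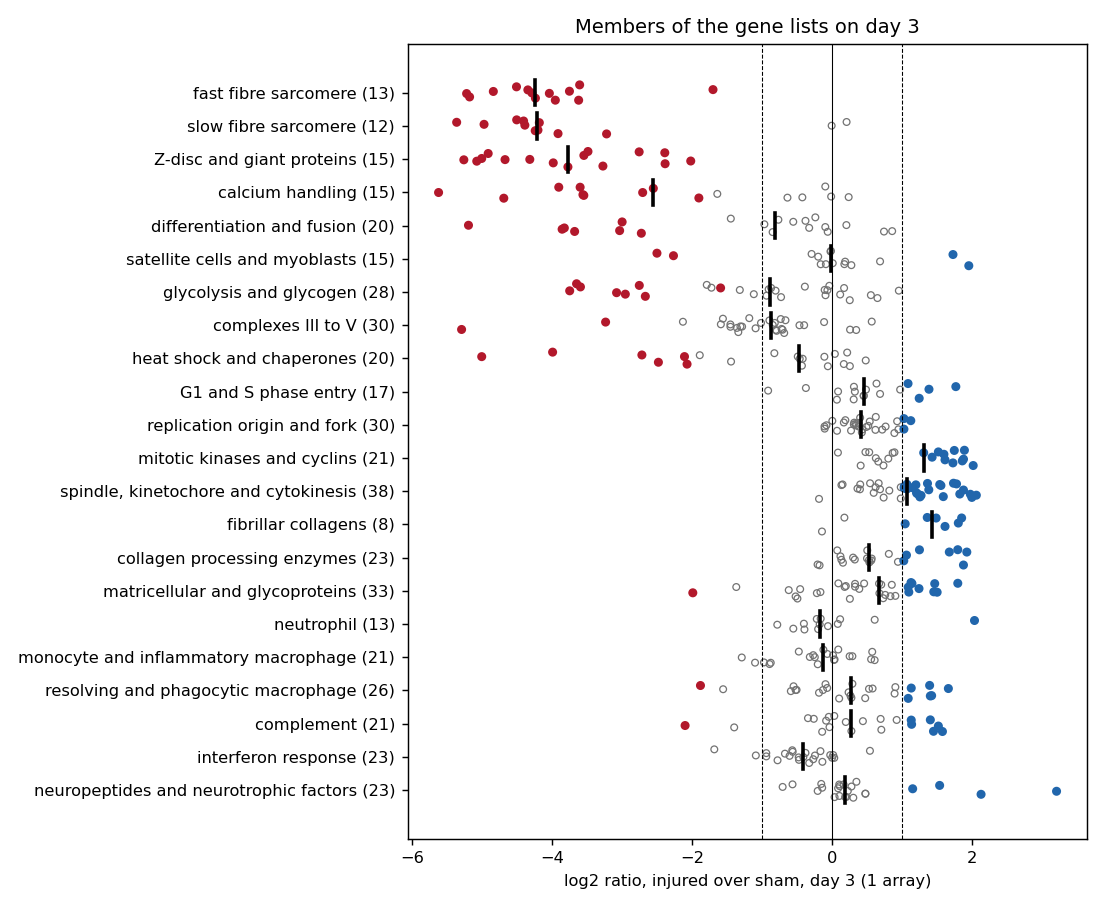
Log2 ratios on day 3 of the measured members of 22 gene lists (their number in brackets); black bars are list medians, dashed lines mark 2-fold, and filled points are genes at least 2-fold from sham under all 3 ratios, blue where higher and red where lower. The medians run from -4.24 for the fast sarcomere to 1.42 for fibrillar collagens.

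Most fibrillar collagens were higher, and fewer of the other collagen genes and of the enzymes that process collagen. Of 8 measured fibrillar collagens 6 were higher (median 1.42) and all held, as nearly all higher calls on the array did. Col1a1 went from 13.17 to 14.97 and Col5a2 from 10.96 to 12.80. Col3a1 was at least 3.06-fold higher, a bound because its injured spot was saturated. Of 11 other collagens 2 were higher and none lower (median 0.37). Of 23 processing enzymes 7 were higher and none lower (median 0.53). P3h1, a prolyl hydroxylase of collagen, went from 10.52 to 12.44, and Pcolce, which speeds removal of the collagen propeptide, from 11.05 to 12.93. Loxl2, Loxl1 and Lox, which cross-link collagen, stood at 1.79, 1.67 and 1.02, whereas the collagen chaperone Serpinh1 was at 0.53. Of 33 matricellular proteins and glycoproteins 9 were higher and 2 lower. Mfap5 and Fbn1, of microfibrils, were at 1.79 and 1.5. Thbs4 at -1.99 and Cilp at -1.37 were lower, and Cilp did not hold. Postn and Tnc, proteins of wound matrix, were at -0.62 and -0.50. Among proteases and inhibitors Cst6, an inhibitor of cathepsins, went from 7.66 to 10.42 (6.79-fold higher), and Mmp10, stromelysin 2, from 9.28 to 5.80 (11.1-fold lower).

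Markers of matrix-making cells gave a mixed picture. Of 17 measured fibro-adipogenic and fibroblast markers 4 were higher and 2 lower. Pdgfra went from 10.72 to 12.39 and Fst, follistatin, which binds activin and myostatin, from 8.97 to 10.77. Gsn and Pdpn were lower, at -1.02 and -1.14, and neither held. The summed level of the fibroblast list was 16.06 in sham and 16.64 in the injured muscle, with Tcf21 at background in both. That of the smooth muscle and pericyte list was 15.10 against 13.88, although the median ratio of its 11 measured members was 0.12, with 7 within 2-fold. Des, which is also a fibre gene, was among its 3 lower members. That of the endothelial list was 13.15 against 13.65. What these cell types contributed to the matrix values was not tested.

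Immune cells differed by type and by gene. Of 26 genes of phagocytic and resolving macrophages 6 were higher and 2 lower (median 0.27). C1qa and C1qb, parts of the first complement component, went from 10.49 to 11.89 and from 11.78 to 12.91. Trem2, a lipid receptor of phagocytes, went from 12.07 to 13.46, and Gpnmb from 13.19 to 14.27. Lgals3, galectin-3, was at least 3.16-fold and Apoe, the lipid carrier, at least 2.68-fold higher, both with a saturated injured spot. Cd163, the haemoglobin scavenger receptor, went the other way, from 9.81 to 7.93, and held. The scavenger receptor Msr1, at -1.56, did not hold. The other 18 were within 2-fold of sham, among them C1qc at 0.27, Gas6 at 0.89 and Mrc1 at -0.07. Spp1 was at -0.52, Arg1 at -0.59 and Hmox1 at -0.13. Of 21 genes of monocytes and inflammatory macrophages 2 were lower and none higher: Ccr2, the receptor that draws monocytes into tissue, at -1.29, and Fcgr2b at -1.10, neither of which held. Cd68 stood at 0.57 and Csf1r at -0.32. The summed level of this list was 16.74 in sham and 16.81 in the injured muscle.

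Neutrophil genes were near sham. Of 13 measured 1 was higher, Itgam, the integrin CD11b, which macrophages carry too, with 7.81 in sham and 9.84 in the injured muscle. S100a8 and S100a9, the most abundant proteins of neutrophils, were at -0.20 and -0.40, and Mmp8 and Ngp were at background in both channels. None of 15 lymphocyte genes was higher. Cd8a was lower at -1.65 and did not hold, while Cd3d, of the T cell receptor complex, stood at 0.28. Of 23 interferon response genes 2 were lower, Ifit1 at -1.69 and Isg15 at -1.09, neither of which held. Of 24 chemokines 4 were higher: Cxcl13, Cxcl12, Ccl5 and Cxcl14, at 2.25, 1.26, 1.23 and 1.12. Another 2 were lower and did not hold. Ccl2 was at -0.13 and Cxcl1 at 0.10. Of 21 complement genes 6 were higher and 2 lower, and besides C1qa and C1qb the higher ones were Cfd at 1.57, C1s at 1.52, C1r at 1.45 and C6 at 1.13. The 2 lower ones were Cfi at -2.1, which held, and Cd59b at -1.4, which did not.

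A cluster of related membrane proteins stood out on the lower side and was chosen after its values were seen. Of 9 measured genes of the Ms4a family, 4-pass membrane proteins of which several mark macrophages, 5 were lower and none higher. Ms4a7, Ms4a6a, Ms4a6b and Ms4a4a were also 4 of the 8 lowest genes that were 2-fold from sham on day 3 alone. Ms4a7 went from 11.77 in sham to 9.43 in the injured muscle (5.06-fold lower) and was the 1 that held. Ms4a6a went from 11.95 to 10.17, Ms4a6b from 10.85 to 9.22 and Ms4a4a from 10.96 to 9.37. Ms4a6bl1 stood at -1.12 and Ms4a12 at -0.97, whereas Ms4a10, Ms4a8 and Ms4a3 were not well above background in sham. In the rn4 coordinates of the array design the probes of Ms4a7 (213842090 to 213842149) and Ms4a6a (214048274 to 214048333) lie near each other on chromosome 1. On the other 3 arrays Ms4a7 lay between -0.29 and -0.11 and Ms4a6a between -0.15 and 0.60. With the sham channels of all 4 arrays averaged in place of the day 3 sham, Ms4a7 was at -2.23, Ms4a6a at -1.42 and Ms4a6bl1 at -0.42.

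Signals to nerve and muscle held the highest named gene. Gal, galanin, a neuropeptide made by injured neurons, went from 9.53 in sham to 12.73 in the injured muscle, 9.22-fold higher. Gdnf, a survival factor for motor neurons, went from 9.46 to 11.58 (4.37-fold higher by its brightest probe). Under the other settings tried the log2 ratio of Gdnf ran from 1.04 to 3.08. Penk, proenkephalin, was at least 2.90-fold higher by its brightest probe, with the other at 0.25, and Npy, neuropeptide Y, stood at 1.15. Those 4 were the higher genes among 23 neuropeptides and neurotrophic factors, and Bdnf and Cntf were at 0.18 and -0.21. The galanin receptor gene Galr2 was not well above background in sham and stood at 7.20 in the injured muscle. None of 17 Schwann cell and nerve genes was 2-fold from sham, and S100b, Gfap and Pou3f1 were at background in both channels. Of 21 Wnt pathway genes 3 were higher: the secreted modulators Sfrp2 and Sfrp4 at 2.54 and 1.25, and the receptor Fzd1 at 1.47. Of 13 genes of the insulin-like growth factor system Igfbp3 and Igf2bp2 were higher, at 1.44 and 1.18. Igf1, which supports muscle growth, was at 0.90 and Igf2 at -0.77.

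**Figure D4:**
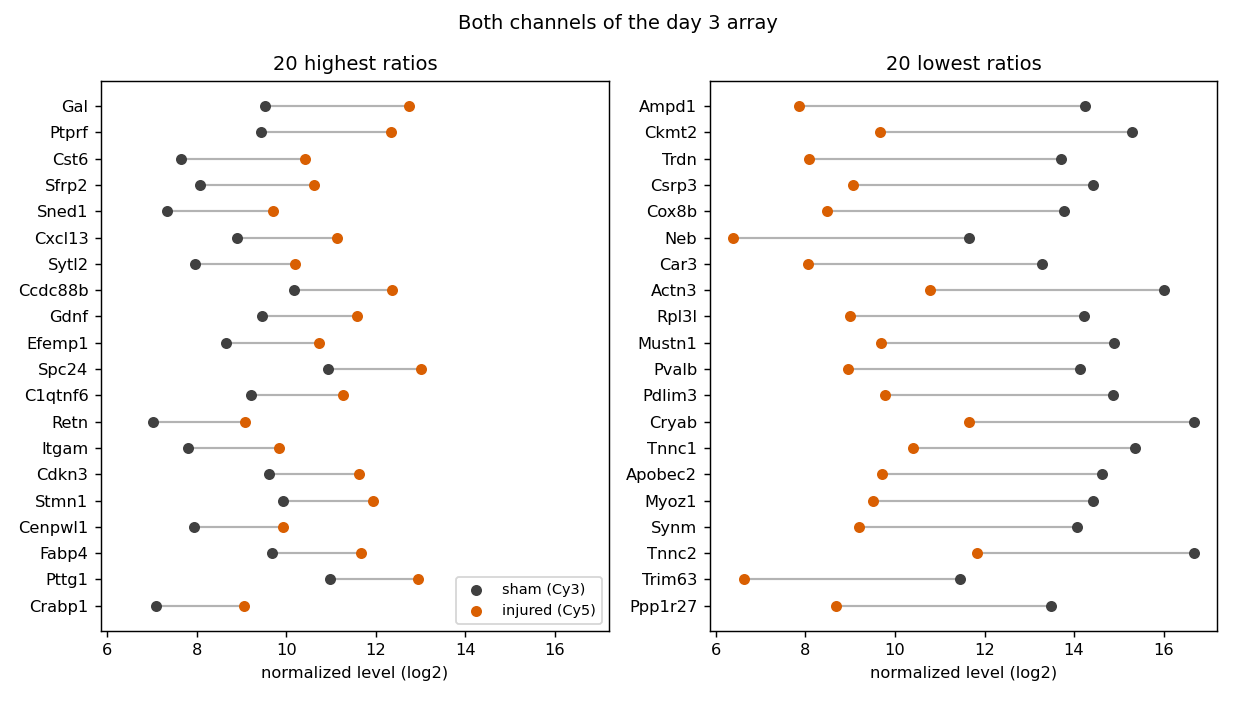
Normalized levels (log2) in the sham channel (dark) and the injured channel (orange) of the day 3 array for the named genes farthest from sham, 20 on each side. Trim63 has the dimmest sham level on the lower side, at 11.46, and Tnnc2 the brightest, at 16.69. Gal, at the top, goes from 9.53 to 12.73.

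The other 3 arrays show which of these values were found at other times. On them 1.24%, 3.13% and 3.15% of measured genes were higher and 4.92%, 1.22% and 1.56% lower on days 1, 7 and 14. Of the mitotic kinase list none was higher on any of those days (medians 0.07, -0.33 and -0.59, against 1.31 on day 3), and the same held for the spindle list (0.02, -0.34 and -0.52, against 1.07). Ccnb1 stood at 0.06, 1.89, -0.24 and -0.91 on days 1, 3, 7 and 14. Gal stood at 0.33, 3.21, -0.26 and -1.41. Pdgfra stood at -0.35, 1.67, -0.43 and -0.15. The fast sarcomere list, lower on days 1 and 3, had medians of 0.03 and 1.37 on days 7 and 14, whereas the slow list was at -3.16 and -2.36. The summed level of the fast list in sham was 19.12, 18.91, 17.92 and 17.52 on days 1, 3, 7 and 14. That in the injured muscle was 15.93, 14.6, 17.9 and 18.69, so its ratio moved through both channels. Col1a1 passed from -2.54 on day 1 through 1.80 to 3.27 and 3.78. Myh3, near sham on day 3, was at 5.08 on day 7. Of 337 genes with a symbol that were measured on all arrays and higher on day 3, 171 (50.7%) were within 2-fold on the other arrays, and of 560 lower genes 89 (15.9%). The like share on the other arrays ran from 20.4% to 55.2% of higher and from 15.6% to 45.6% of lower genes. The 8 highest of the former were Cdkn3, Ccnb1, Stmn1, Pttg1, P3h1, Cenpwl1, Spag5 and Hmgb2.

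A test of day 3 against the mean of the other 3 arrays called no gene. Limma with Benjamini-Hochberg adjustment at 0.05 gave 0 of 20499 genes (0.0%), with 655 at an unadjusted p under 0.05, fewer than the 1025 that 5% of the genes would make, and a smallest adjusted p of 1. The spread in it is that among days 1, 7 and 14 and so contains their time. The 10 genes with the smallest p on the higher side were Cxcl14 (2.41 above the other arrays), Stmn1, Cdkn3, Aspm, Bub1, Ptprq, Pdgfra, Ccdc34, Cenpt and Kif23. Those on the lower side included Ms4a7, Ms4a6b and some genes that were above sham on the other 3 arrays and not on day 3. Ly6c, a monocyte antigen, was at 1.45, -0.90, 1.60 and 1.51 on days 1, 3, 7 and 14. Plac8 was at 1.61, -0.50, 1.53 and 1.49, and Slfn4 at 1.55, -0.49, 1.56 and 1.90. Complement C3 was at 1.42, -0.04, 1.80 and 1.67. All of these had an adjusted p of 1 in the limma test. The list of monocytes and inflammatory macrophages did not follow them, with medians of 0.76, -0.13, -0.12 and -0.38 on days 1, 3, 7 and 14. Cd14, its receptor for endotoxin, was at 1.13, -0.07, -0.49 and -1.30. The interferon response list had medians of 0.57, -0.41, 1.78 and 1.5 on days 1, 3, 7 and 14. Of its members 8, 0, 17 and 15 were higher in turn. Its day 3 median was 0.1 after median centring.

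Leaving out the array of day 1 changed that count. The spread is then the difference between days 7 and 14 alone, which favours genes with like values on both days. It is not a spread between animals. Day 3 against days 7 and 14 gave 65 calls (0.317%) by limma, 64 of them lower, with 42 symbols and 27 list members. The lower ones included Trdn, Tnnc2, Atp2a1, Ampd1 and Cox8b, which were lower on day 1 as well, at -4.30, -3.38, -2.97, -4.84 and -4.46. Lyve1, the hyaluronan receptor of lymphatic vessels and some macrophages, was the 1 higher gene. It stood at 0.11, 1.46, -2.06 and -1.95 on days 1, 3, 7 and 14, and on day 3 its other probe read 0.33. Without the array of day 7 or of day 14 there were 0 calls.

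**Figure D5:**
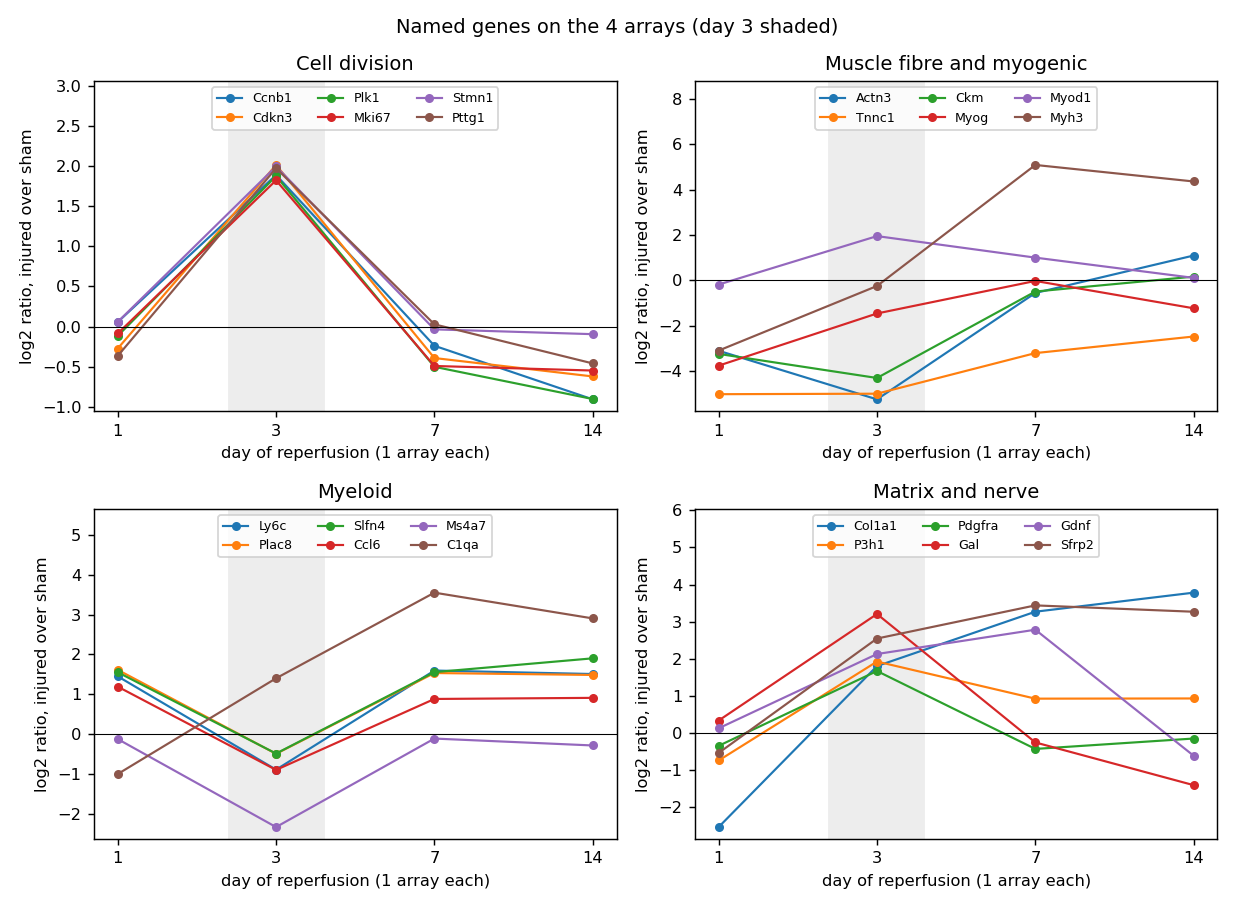
Log2 ratios of injured over sham on the 4 arrays (days 1, 3, 7 and 14 of reperfusion, 1 array each, day 3 shaded) for 24 named genes in 4 groups. The 6 cell division genes lie between 1.82 and 2.01 on day 3 and below 0.1 on the other days, and Ly6c, Plac8, Slfn4 and Ccl6 lie below 0 on day 3 and above 0 on the others.

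The microRNA miR-21 is induced by injury in many tissues, and its published targets were examined as a list. MicroRNAs were not measured on this array. The mature rat sequence from RefSeq (GRCr8, chr10:71902653-71902674, minus strand) has its seed, bases 2 to 8, in capitals.
rno-miR-21-5p: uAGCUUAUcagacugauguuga
Of 25 measured targets 2 were higher and 2 lower (median 0.12). Rhob, a small GTPase, was at 1.09 and E2f1, a driver of S phase, at 1.08. Tpm1, tropomyosin 1, a fibre gene, was at -3.40 by its brightest probe, with its 4 probes between -3.82 and 0.89. The chemokine receptor Ccr1 was at -1.11 and did not hold. Pdcd4, a translation inhibitor, stood at -0.51, Spry1 at 0.21, Reck at 0.81 and Timp3 at -0.10, each within 2-fold of sham.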

How the data were processed

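Each array was a 2-colour hybridization of amplified, dye-labelled RNA, and 4 arrays (days 1, 3, 7 and 14) were read. Intensity was deposited per spot as the mean brightness of each dye, beside the median brightness of the local background, without normalization. The deposited log10 ratio is red over green after background subtraction and dye normalization by the scanner software, per the file headers (Feature Extraction 10.5.1.1; version 9.5.3 in the submitters' processing notes). The deposited p-value comes from the software's error model, and all 606 higher and 965 lower genes had one under 0.01. The deposited table of log2 ratios differed from the log10 ratio times 3.322 by at most 0.005 over 40972 probes, with a median of 0 in each column, so its scale, centring and direction are known.

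Ratios were computed with limma 3.58.1 in R 4.3.3: normexp background correction with an offset of 50, then loess within the array, with control and outlier spots (22 on day 3) at no weight. Spots of a probe were averaged, and the brightest probe stood for its gene. Of 261 called genes with 2 or more probes above background, 78 had all probes 2-fold the same way, 182 had a probe within 2-fold and 1, Pdlim5, had a probe 2-fold the other way. Channel levels came from quantile normalization of mean brightness (Aquantile). A saturated channel, or one too dim to stand out from background, gives a bound (at least N-fold), for which a dim value was raised to the lowest signal of the probes that passed as above background. On day 3 the share of probes above background was 68.7% for injured and 41.1% for sham RNA, and 67 and 4 were saturated. On the other arrays the shares were 64.4% to 66.6% and 34.7% to 47.3%. The precision is limited by the number of arrays.

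Probes were named through RefSeq genes of GRCr8: 11140 by accession, 1604 by symbol, 456 by older symbol, 6496 by a predicted name and 270 by description, and 21046 kept the name in the file. The 60 lists held 1327 genes, of which 1235 had a probe and 1147 were measured. Members and lists were chosen with earlier results of these data known. Named genes are per list, up to 6 members farthest on the side of the median, up to 4 farthest the other way when 2-fold, the 20 highest and lowest genes, the 8 highest and lowest that were 2-fold on day 3 and within 2-fold elsewhere, the 10 smallest p each way, miR-21 targets 2-fold from sham and a fixed marker set; any other gene was picked with its values in view. The test of day 3 against the mean of the other arrays used limma over genes measured on all arrays, with the lone array assumed to vary like the rest. Steps were tested on simulated data. The alternatives tried are given in the closing section. Nothing says whether arrays came from separate animals. A few list members that were measured are not reported here by name.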

Additional observations from a re-analysis of the deposited data

How the results depend on the processing

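The counts of higher and lower genes were 1496 and 1434 with a normexp offset of 0, 4196 and 395 under median centring, and 3748 and 1810 by the deposited ratio. Under no background correction, no filter on dim probes, both channels above background, averaged sham channels of all 4 arrays, the median over a gene's probes, saturated genes left out and a background from negative control spots (added after seeing the data), they lay within 1.5 times of 606 and 965. Under median centring 13 of the 26 list medians below 0 were above it. Of those at least 0.5 from 0 after loess these were the tricarboxylic acid cycle (0.36), respiratory complex I (0.15), complexes III to V (0.09) and the proteasome (0.55). The other 9, between -0.41 and -0.02 after loess, lay between 0.1 and 1.05. Among named genes at least 2-fold lower after loess, those above 0 were Idh2 (0.04), Gsn (0.08), Mt1 (0.1), Prdx1 (0.11) and Rplp1 (0.29). With the 4 sham channels averaged Gsn was at 0.57. Named genes nearer to 0 after loess also crossed it under some setting, among them Rplp0 and Cdkn1a, and are not listed. Median centring left brighter genes higher than loess did, and which scaling lies nearer to the muscle was not tested. Nor was the reason for the value of Gsn with averaged sham channels. The test against the other arrays gave from 0 calls to 65 when arrays of other days were left out in turn, and 0 under each other setting. No paired analysis was possible because each group was 1 array. Dim probes limit what can be seen in sham, where 41.1% of probes were well above background.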

Other observations

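Several gene groups not described above were near sham or split. Of 31 genes of folding and secretion in the endoplasmic reticulum 2 were higher, the disulfide isomerase Pdia4 at 1.2 and the stress sensor Atf6 at 1.13, while Dnajb9, a chaperone partner, went from 8.91 to 7.23 and did not hold. Of 22 oxidative stress genes 2 were higher and 6 lower. Sod3, the superoxide dismutase outside cells, went from 10.11 to 11.96, while Gsta3, Cat and Nqo1 were at -1.44, -1.25 and -1.16, and none of these 3 held. Of 23 immediate early genes 3 were higher, Egr1 at 1.87, Jund at 1.2 and Klf4 at 1.11, and Ier3 was lower at -2.03.

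Genes of fat cells were in part higher. Of 13 measured 4 were higher: Retn, resistin, from 7.02 to 9.07, Fabp4 from 9.68 to 11.67, Cfd, adipsin, from 11.75 to 13.32, and Fasn, fatty acid synthase, at 1.1. Adipoq, adiponectin, the defining product of fat cells, stood at 7.03 and 7.32, and Lep was at background in both channels. The summed level of the list was 12.67 in sham and 14.05 in the injured muscle, while the median ratio of its members was 0.14, with 9 of 13 within 2-fold.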
